A study of Mus musculus with 8 samples.

Results

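TNF superfamily ligands of CD4 T cells were taken as 9 genes, Fasl, Tnfsf10, Tnfsf14, Lta, Ltb, Tnf, Tnfsf11, Cd40lg and Tnfsf8, and every probe that the platform annotation assigns to one of them was followed over 8 arrays. These were 12 of the 25697 probes on the array. A probe counted as detected on an array where its detection p was under 0.05, and 8 of the 12 probes were detected on at least 2 arrays. They covered 6 of the 9 genes, which entered the fit among 7916 genes in all. Cd40lg, Tnfsf10 and Tnfsf8 did not enter it.

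RNA came from CD4 T cells sorted from small intestine (gut) or spleen of C57B6 mice of both sexes aged 7 to 14 weeks. Treg were the GFP+ cells and Tcon, the conventional T cells, the GFP- cells of a live TCRb+CD4+CD8-B220- gate, the GFP reporting Foxp3, the factor that defines regulatory T cells. K14 mice were labelled K14Aβb, FOXP3GFP and, per the submitters, have MHC class II in the thymus only, while control mice were labelled MHCII+/-, FOXP3GFP. In this line a keratin 14 promoter is known to drive a class II chain in the thymic cortex. All groups carry the Foxp3 reporter, and the controls are heterozygous at the class II locus by their label. Each of the 8 combinations of tissue, cell type and genotype was measured once, with RNA of several mice pooled on 1 array. Each comparison therefore rests on 4 matched pairs of arrays, and all 3 comparisons use the same 8 arrays. A p-value reflects the spread of pair differences from pooled RNA, taken across different tissues, cell types or genotypes, and not the scatter among mice.

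The ligands of this superfamily are membrane proteins that assemble as trimers, some of them also released as soluble proteins, and they cluster receptors on neighbouring cells. Receptors with a death domain can start apoptosis, and most others recruit TRAF adaptors and switch on NF-kB. Helper T cells make many of these ligands after antigen receptor stimulation, and the lymphotoxins and RANKL (Tnfsf11) are known for building lymphoid tissue, that of the gut included.

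RefSeq promoter sequences on GRCm38.p6, from 250 bases before to 50 after each gene's start, were matched for 8 of the 9 members; Cd40lg is named only. Of these, 3 are shown: Fasl and Tnfsf14 because their signal was lower in Treg than in Tcon in every pair, and Lta because its signal was lower in K14 than in control in every pair. Capitals mark matches on either strand to the NFAT core GGAAA or to the AP-1 motif TGANTCA, the DNA letters of factors that act downstream of the T cell receptor. The motifs do not overlap at any marked place.
Fasl, chr1:161788446-161788745, minus strand: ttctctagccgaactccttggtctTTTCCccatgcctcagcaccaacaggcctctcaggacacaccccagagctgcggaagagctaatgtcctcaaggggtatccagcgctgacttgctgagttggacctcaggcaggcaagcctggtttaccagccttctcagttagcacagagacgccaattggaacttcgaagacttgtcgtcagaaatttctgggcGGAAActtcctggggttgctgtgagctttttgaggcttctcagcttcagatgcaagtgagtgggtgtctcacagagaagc
Tnfsf14, chr17:57194132-57194431, minus strand: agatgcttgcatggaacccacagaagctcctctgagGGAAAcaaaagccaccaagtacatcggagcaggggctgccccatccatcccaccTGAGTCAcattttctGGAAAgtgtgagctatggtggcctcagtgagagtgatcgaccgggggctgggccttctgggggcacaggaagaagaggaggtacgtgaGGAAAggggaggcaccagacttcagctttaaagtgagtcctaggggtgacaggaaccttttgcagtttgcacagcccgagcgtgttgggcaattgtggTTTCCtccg
Lta, chr17:35205302-35205601, minus strand: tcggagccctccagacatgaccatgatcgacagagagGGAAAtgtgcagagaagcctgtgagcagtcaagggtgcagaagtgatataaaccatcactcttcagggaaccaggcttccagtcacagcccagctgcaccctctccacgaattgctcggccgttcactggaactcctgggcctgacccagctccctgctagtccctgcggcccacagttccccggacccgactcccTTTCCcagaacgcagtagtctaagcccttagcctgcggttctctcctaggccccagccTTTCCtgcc

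The NFAT core was found in all 8 member promoters, and in 61.3% of the 32851 promoters of this length. The AP-1 motif was found in 1 of the 8, that of Tnfsf14, where it begins 160 bases before the start, and in 7.81% of all promoters. The forkhead core GTAAACA, searched because Foxp3 belongs to the forkhead family, was found in 1 of the 8, that of Ltb, 124 bases before the start, and in 3.65% of all promoters. Such a match describes letters and not a bound site. In the RefSeq annotation Ltb, Tnf and Lta are consecutive protein-coding genes, Tnfsf14 lies next to Cd70, Fasl next to Tnfsf18 and Tnfsf8 next to Tnfsf15, each of these neighbours being a ligand of the same superfamily.

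Between 8822 and 9677 probes were detected per array. All 9 CD4 T cell markers were detected on all 8 arrays, Il2ra was detected on the 4 Treg arrays and on no Tcon array, and Ncr1, Eomes and Cd8a were detected on none. Cd8b1, which is a CD8 T cell marker, was detected on all 8 arrays. On the gut Tcon control array all 13 measured markers of exocrine pancreas were detected, against 1 to 4 on each of the other arrays. H2-Ab1, the class II gene the K14 label names, has 4 probes. One of them read 201.3 to 207.2 and was detected on 0 of the 4 K14 arrays, against 254.7 to 367.1 and 1 of the 4 control arrays. The other 3 were detected on all 8 arrays and read 644.3 to 9240.5 on K14 arrays, against 800.3 to 5043.9 on control arrays. In spleen each of these 3 was higher on both K14 arrays than on both control arrays, the brightest reading 9240.5 in Treg and 8660.7 in Tcon of K14, against 2558.5 in Treg and 3681.4 in Tcon of control mice. Which part of the gene each probe reads was not given in the sources used here, so they do not settle the genotype labels, and K14 and control below stand for the labels.

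**Figure D1:**
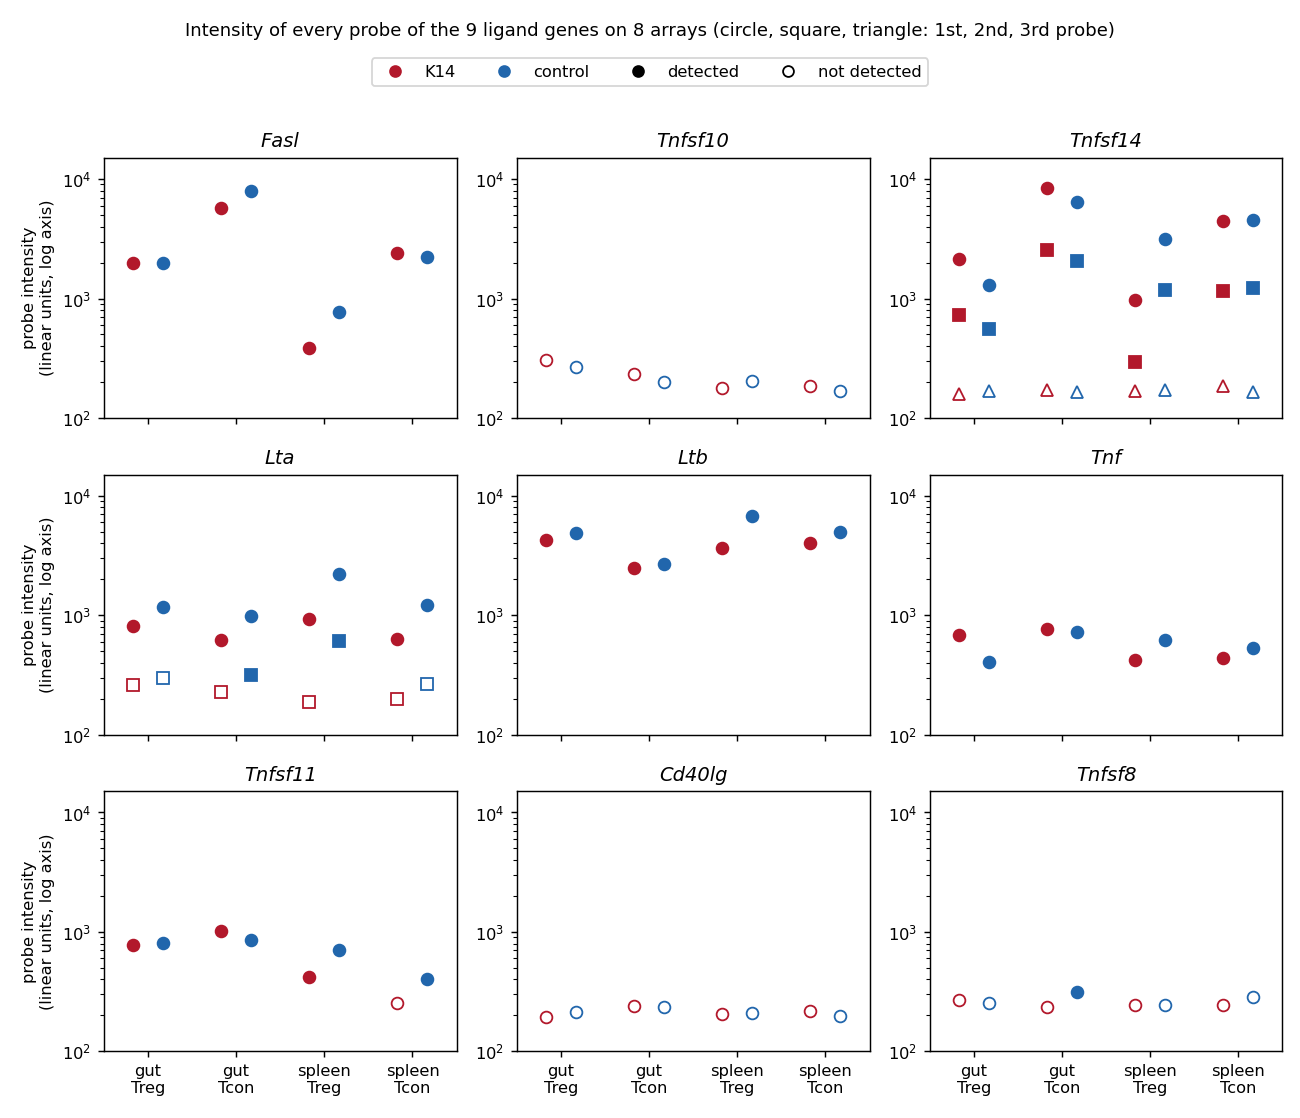
Probe intensity (linear units on a log axis) of every probe of the 9 ligand genes on the 8 arrays, 1 point per array, with K14 in red left of control in blue and open symbols where the probe was not detected. Fasl and the brighter Tnfsf14 probe (circles) lie lower in Treg than in Tcon everywhere, Lta (circles) lies lower in K14 than in its matched control, and Tnfsf10 and Cd40lg are open throughout.

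Among the death ligands, Fasl, which kills Fas-bearing cells and limits activated T cells, varied most between arrays. Its intensity in Treg was 1983.9 in K14 and 1992.3 in control gut, and 383.7 in K14 and 774.5 in control spleen. In Tcon it was 5684 in K14 and 7956.8 in control gut, and 2410.5 in K14 and 2240.4 in control spleen. The Treg arrays were all below the Tcon arrays, and within either cell type both gut arrays were above both spleen arrays. Tnfsf10 (TRAIL), the ligand of the death receptor Tnfrsf10b, was detected on 0 of the 8 arrays, with intensities of 168 to 304.9. Its highest reading, on the gut Treg K14 array, had a detection p of 0.0551.

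Tnfsf14 (LIGHT), a costimulatory ligand of Tnfrsf14 and of the lymphotoxin beta receptor, has 3 probes. The brightest read 2135.1 in K14 and 1295.4 in control gut, and 974 in K14 and 3121.5 in control spleen Treg. In Tcon it read 8359.6 in K14 and 6480.8 in control gut, and 4470.6 in K14 and 4575 in control spleen. All Treg arrays were again below all Tcon arrays, with spleen control Treg nearest to the Tcon arrays. A second probe read 730 in K14 and 560.6 in control gut Treg, and 294.6 in K14 and 1187.2 in control spleen Treg. In Tcon that probe read 2555.7 in K14 and 2043.2 in control gut, and 1163.8 in K14 and 1214.4 in control spleen. By this probe the spleen control Treg array lay among the Tcon arrays in intensity. In normalized log2 signal it lay just below them, at 9.77 against 9.90 on the nearest, spleen control Tcon. The third probe was not detected on any array, at 158.7 to 185.2.

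Lta, the lymphotoxin alpha chain, can act alone on TNF receptors or join Ltb on the cell surface to engage the lymphotoxin beta receptor. Its brighter probe read 807.2 in K14 and 1180.3 in control gut, and 922.5 in K14 and 2216.3 in control spleen Treg. In Tcon it read 618.8 in K14 and 991 in control gut, and 634.6 in K14 and 1218.2 in control spleen. Every K14 array was below every control array in intensity. The second Lta probe was detected on 2 arrays, spleen control Treg at 603.5 and gut control Tcon at 314.7, and stood between 186.2 and 298 on the others.

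Ltb, the lymphotoxin beta chain, was bright on all 8 arrays and varied least among the 6 fitted members, over 1.24 log2 units. In Treg it read 4254.5 in K14 and 4888.5 in control gut, and 3625.3 in K14 and 6776.7 in control spleen. In Tcon it read 2494.5 in K14 and 2680.8 in control gut, and 3986.9 in K14 and 4984.3 in control spleen. The gut Tcon arrays were the lowest pair of the 8.

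Tnf, the founding member and a major inflammatory cytokine, stood not far above the detection limit, which lay at 266.7 to 329.6 on these arrays. In Treg it read 680.6 in K14 and 408.9 in control gut, and 421.5 in K14 and 617.7 in control spleen. In Tcon it read 762.7 in K14 and 721.2 in control gut, and 441.5 in K14 and 534.6 in control spleen. The Treg and Tcon arrays overlapped.

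Tnfsf11 (RANKL), which drives osteoclasts and the M cells of gut lymphoid tissue, was detected on 7 arrays. In Treg it read 771.4 in K14 and 806.4 in control gut, and 418.8 in K14 and 703.8 in control spleen. In Tcon it read 1018.1 in gut K14, 858.5 in gut control, 253.2 in spleen K14, where its detection p was 0.0977, and 406.4 in spleen control. All gut arrays were above all spleen arrays.

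The helper ligands were at or below the detection limit. Cd40lg, which gives B cells and dendritic cells their CD40 signal, was detected on 0 of the 8 arrays at 193 to 238.3. Tnfsf8 (CD30 ligand) was detected on 1 array, gut control Tcon, at 312.1 with a detection p of 0.0276, and read 234.6 to 283.7 on the other 7. A probe without signal above background does not show that its transcript is absent.

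The first comparison asks how Treg differ from Tcon of the same tissue and genotype. The named ligands split. Fasl and Tnfsf14 were lower in Treg in 4 of 4 pairs and the Treg and Tcon arrays did not overlap, while Lta, by its brighter probe, was higher in Treg in 4 of 4 pairs and Ltb in 3 of 4. None of the 6 fitted members passed limma's test at an adjusted p of 0.05, where 55 of 7916 genes, 0.695%, passed. At an unadjusted p under 0.05 stood 2 of the 6 members and 1209 of all genes. The 2 members without overlap compare with 6.9% of all genes, and the 3 members with 1 direction in all 4 pairs with 25.5%.

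Fasl averaged 9.57 ± 1.30 in Treg and 11.92 ± 1.003 in Tcon in normalized log2 signal (SD, n = 4 each). By limma the difference of -2.34 ± 0.28 (SE, 4 pairs) is 5.08-fold lower in Treg, and 1.24% of all genes differed by at least as much. Its adjusted p of 0.0507 lay just above the threshold. It lay below it in 8 of 14 alternative settings, down to 0.0190, and in none of the 4 that leave out a pair (0.121 to 0.209). The pairs ranged from -3.28 in spleen K14 to -1.86 in spleen control.

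Markers known from NK cells moved with Fasl. Their summed normalized signal was 5941 to 9785 on Treg arrays, against 12812 to 36758 on Tcon arrays, with 3 to 4 of 9 markers detected on Treg and 4 to 5 on Tcon arrays. Klrd1, an NK receptor chain, fell by 4.15 ± 0.49 (adjusted p = 0.0492), a size that rests mostly on undetected readings, since it was detected on 1 of 4 Treg and 4 of 4 Tcon arrays. Nkg7, a granule protein of cytotoxic and type 1 helper cells, differed by -1.89 ± 0.23 (adjusted p = 0.0509). With intensities of 2540.4 to 6930.1 on Treg and 7027.8 to 26857.3 on Tcon arrays, Nkg7 carried much of the sum. Of the other fitted markers Klrb1c differed by -1.37 ± 0.32 and Prf1 by -0.45 ± 0.16. Ncr1, Eomes and Gzmb were detected on no array, and the gate required TCRb. The part of these markers in the Fasl difference was not tested. In bulk RNA, fewer cells of a type and less RNA per cell cannot be told apart.

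Tnfsf14 averaged 10.49 ± 0.70 in Treg and 12.48 ± 0.51 in Tcon (SD, n = 4 each). The difference was -1.99 ± 0.39 (SE, 4 pairs, adjusted p = 0.126), or 3.98-fold lower in Treg. Of the pairs, spleen control gave -0.60 and the others -2.71 to -2.29. The second probe differed by -2.07 ± 0.51 (adjusted p = 0.189 with each probe fitted by itself), and its spleen control pair by only -0.14.

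The lymphotoxin chains differed little in size. Lta was higher by 0.47 ± 0.21 in Treg (adjusted p = 0.374), with 0.88 and 0.77 in the spleen pairs and 0.12 in both gut pairs. Its second probe gave no common direction, with 2.16 in spleen control, 0.11 in gut K14, -0.11 in spleen K14 and -0.48 in gut control, and 0.42 ± 0.47 overall. Ltb was higher by 0.43 ± 0.19 (adjusted p = 0.365). Tnf differed by -0.53 ± 0.32 (adjusted p = 0.499), with -1.54 in gut control and -0.66 in gut K14, against 0.13 in spleen control and -0.04 in spleen K14.

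Tnfsf11 gave no common direction. It was higher in Treg in both spleen pairs, by 1.81 in K14 and 1.03 in control, and lower in both gut pairs, by -0.92 in K14 and -0.28 in control. Over 4 pairs the difference was 0.41 ± 0.49 (adjusted p = 0.738). The gut minus spleen difference of these Treg minus Tcon differences was -2.02 ± 0.46 (2 residual degrees of freedom, limma adjusted p = 0.478). No gene of 7916 passed that test (0%), and 577 had an unadjusted p under 0.05. With the undetected spleen K14 Tcon reading raised to the detection limit, which makes the difference a smaller one, it was -1.79 (adjusted p = 0.444). Over all 8 alternatives it ranged from -2.03 to -0.99 (limma adjusted p = 0.398 to 0.609).

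**Figure D2:**
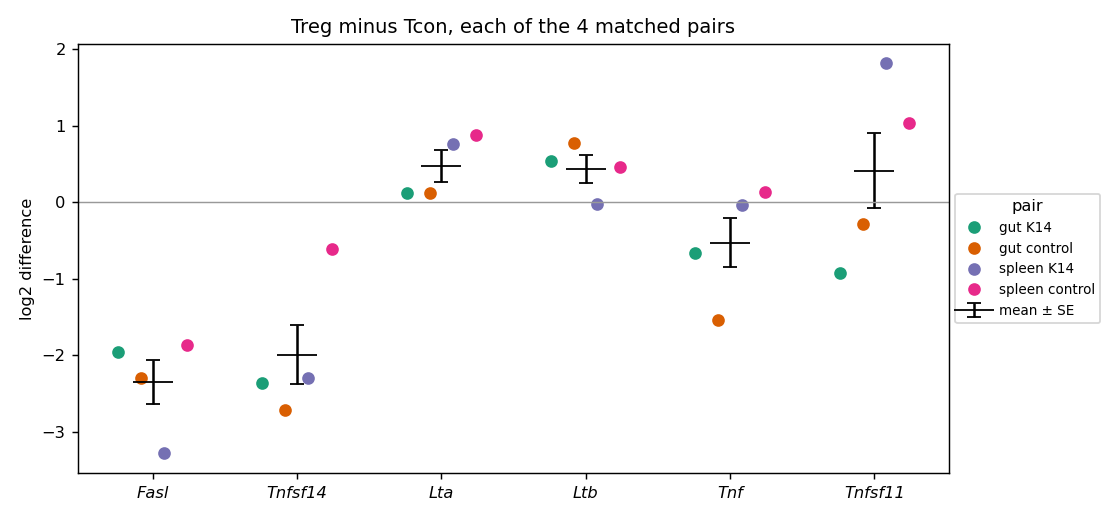
Treg minus Tcon log2 difference of the 6 fitted ligands, with 1 coloured point for each of the 4 matched pairs and a black bar for their mean ± SE. Fasl (-3.28 to -1.86) and Tnfsf14 (-2.71 to -0.60) lie below 0 in every pair, and Tnfsf11 lies above 0 in the spleen pairs and below it in the gut pairs.

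The members' median difference was -0.06, against -0.03 over all genes. Of a list drawn up around the receptors of these ligands 6 of 14 genes could be fitted, 0 passed, and their median was -0.13. This list includes Cd160 and Btla, which bind the receptor Tnfrsf14 rather than one of these ligands. The largest differences were 2.44 ± 0.52 for Cd40, -1.27 ± 0.22 for Cd160, 0.74 ± 0.28 for Fas and -0.47 ± 0.19 for Btla (adjusted p = 0.104 to 0.337). Adaptors and signalling genes (13 fitted) had a median of 0.24, led by 1.08 ± 0.26 for Tank and 1.04 ± 0.42 for Traf2, with -0.75 ± 0.34 for Traf4 and 0.74 ± 0.18 for Traf1, and 0 passed. NF-kB subunits and inhibitors (7 fitted, 0 passed) had a median of 0.55, with 0.68 ± 0.31 for Rel, 0.64 ± 0.21 for Nfkbia, 0.61 ± 0.18 for Nfkb2 and 0.55 ± 0.21 for Nfkbie.

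Genes of ligand shedding and mRNA decay (6 fitted, 0 passed) had a median of 0.37, with 0.49 ± 0.31 for Adam17, the protease that releases soluble TNF, 0.40 ± 0.21 for Zfp36l1, 0.38 ± 0.16 for Zc3h12a and 0.35 ± 0.29 for Rc3h1. Factors induced by the T cell receptor (13 fitted, 0 passed) had a median of 0.09, with 1.31 ± 0.38 for Irf4, 0.74 ± 0.34 for Nr4a2, 0.60 ± 0.35 for Nfat5 and -0.53 ± 0.26 for Fosb. Helper cytokines differed more: 2 of 12 fitted genes fell and 0 rose, with a median of -1.60. Xcl1, a chemokine for dendritic cells, fell by 4.06 ± 0.43 (adjusted p = 0.0424), and Il4, the type 2 helper cytokine, fell by 3.82 ± 0.39 (adjusted p = 0.0404). Of the Treg markers, 6 of 11 fitted rose. Il2ra was at least 3.62-fold higher in Treg (adjusted p = 0.0404), a bound because it was detected on 4 of 4 Treg and 0 of 4 Tcon arrays. The bound sets the mean of the side with signal against each other array's lowest detected signal, or the probe's own where higher. Nrp1 rose by 3.96 ± 0.36, Tnfrsf18 by 2.09 ± 0.18, Tnfrsf9 by 3.63 ± 0.38, Ebi3 by 3.79 ± 0.42 and Klrg1 by 5.55 ± 0.55 (adjusted p = 0.0404 to 0.0474). The probe of Foxp3 itself, whose reporter set the gate, did not separate the cells: it read 274.3 to 331.7 on Treg arrays, against 291.9 to 323.4 on Tcon arrays, a difference of -0.16 ± 0.14 (adjusted p = 0.638), close to the detection limit. Tnfrsf18 and Tnfrsf9 are receptors of the TNF superfamily whose ligands are not among the 9.

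The second comparison asks how T cells of the gut differ from splenic T cells of the same type and genotype. Fasl rose in gut, by 1.92 ± 0.26 (SE, 4 pairs, adjusted p = 0.0419), or 3.78-fold, and was higher in 4 of 4 pairs. It was the 1 member of 6 past the test, where 190 of 7916 genes, 2.4%, passed. Of these 129 were higher and 61 lower in gut, and the same fit of the authors' deposited log2 values called 240 higher and 226 lower. Gut and spleen arrays did not overlap for 1 member, Tnfsf11, against 14.6% of all genes, and 4 members had 1 direction in all 4 pairs, against 34.3%.

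Fasl averaged 11.71 ± 1.23 in gut and 9.79 ± 1.55 in spleen (SD, n = 4 each). The pairs gave 2.63 in Treg K14, 1.65 in Treg control, 1.30 in Tcon K14 and 2.08 in Tcon control. The call was lost without the detection filter (adjusted p = 0.0581) and whichever pair was left out (1.68 to 2.12, adjusted p = 0.0926 to 0.147). The summed signal of exocrine pancreas markers was 1387 to 63991 on gut arrays, against 674.4 to 885.3 on spleen arrays, and that of epithelial markers 4749 to 12469, against 1147 to 1738. That of CD8 T cell markers was 1323 to 3855 on gut arrays, against 6139 to 10741 on spleen arrays. Cd8b1, the 1 marker of this list detected on spleen arrays, differed by -1.88 ± 0.42 (adjusted p = 0.0828). Gzmk, detected on 2 arrays, went the other way, by 1.05 ± 0.59 (adjusted p = 0.337), and Cd8a and Crtam were detected on none. The part of these markers in the Fasl difference was not tested. Without the Tcon control pair, which holds the array with 63991, the Fasl difference was 1.86.

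Tnfsf11 was higher in gut in 4 of 4 pairs, by 3.43 in Tcon K14, 1.53 in Tcon control, 0.70 in Treg K14 and 0.22 in Treg control. The mean difference was 1.47 ± 0.56 (adjusted p = 0.195). The largest of these pairs has the undetected spleen array, and without it the value was 0.82. Gut arrays averaged 9.28 ± 0.41 and spleen arrays 7.81 ± 1.02 (SD, n = 4 each).

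In normalized values both lymphotoxin chains were lower in gut in 4 of 4 pairs without passing the test. In intensity the Treg K14 pair of Ltb went the other way, at 4254.5 in gut and 3625.3 in spleen. The normalized difference was -0.60 ± 0.21 for Lta (adjusted p = 0.176) and -0.53 ± 0.18 for Ltb (adjusted p = 0.158). The second Lta probe differed by -0.19 ± 0.51, with -2.11 in the Treg control pair and 0.31 to 0.53 in the others. B cell markers had a median difference of -1.10 in gut over 5 fitted genes, with 0 past the test, and their part in the lymphotoxin values was not tested.

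Tnf and Tnfsf14 varied between pairs. Tnf differed by 0.20 ± 0.38 (adjusted p = 0.785), with -1.15 in the Treg control pair and 0.41 to 1.03 in the others. Tnfsf14 differed by 0.24 ± 0.45 (adjusted p = 0.789), with -1.44 in the Treg control pair and 0.66 to 0.90 in the others. Without that pair the values were 0.65 for Tnf and 0.80 for Tnfsf14, and neither passed the test.

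**Figure D3:**
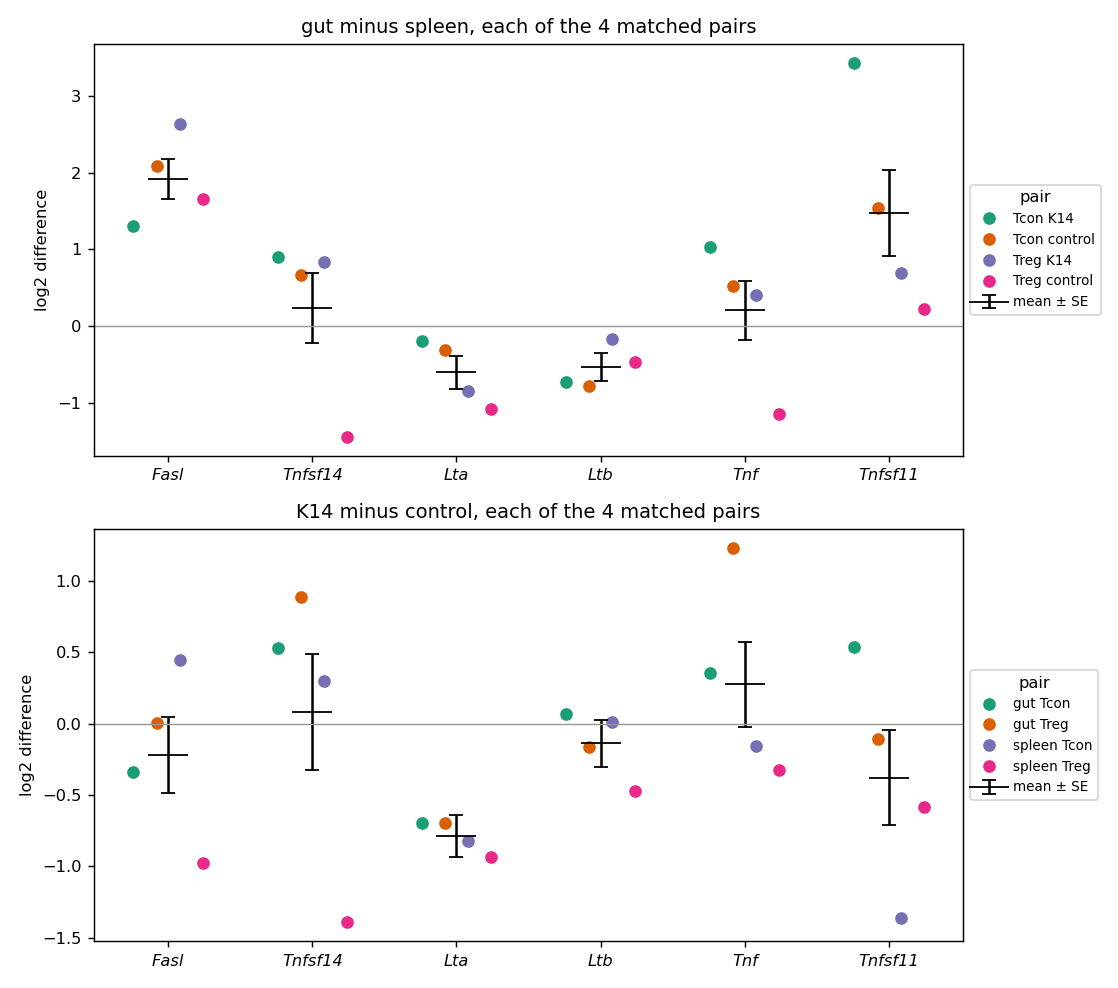
Log2 differences of the 6 fitted ligands between gut and spleen (top) and between K14 and control (bottom), with 1 coloured point per matched pair and a black bar for the mean ± SE. Fasl lies between 1.30 and 2.63 in gut minus spleen, and Lta lies between -0.93 and -0.70 in K14 minus control.

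The members' median difference between gut and spleen was 0.22, against -0.07 over all genes. Around the ligands, 1 of 6 fitted genes of the receptor list rose and 0 fell. The gene that rose was Cd160, by 1.49 ± 0.16 (adjusted p = 0.0257), which binds the receptor Tnfrsf14 and not one of the ligands. Of adaptors and signalling genes 1 of 13 rose, Tnfaip3 (A20), a brake on NF-kB signalling that TNF induces, by 3.81 ± 0.19 (adjusted p = 0.00887). Of NF-kB genes 1 of 7 rose, Nfkbia, which holds NF-kB in the cytoplasm, by 1.58 ± 0.17 (adjusted p = 0.0257), and the list's median was 1.06. Of genes for shedding and mRNA decay 1 of 6 rose, Zfp36 (tristetraprolin), which destabilises Tnf mRNA, by 1.22 ± 0.15 (adjusted p = 0.0336).

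Of factors induced by the T cell receptor 5 of 13 rose and 0 fell, with a median of 1.19. They were the AP-1 genes Fosb (4.79 ± 0.37), Fos (3.77 ± 0.22), Jun (3.31 ± 0.48) and Junb (3.07 ± 0.27), and Irf4 (2.51 ± 0.39), with adjusted p from 0.0102 to 0.0498. Of helper cytokines 4 of 12 rose and 0 fell, with a median of 1.76: Il10 by 6.44 ± 0.50, Ifng by 3.83 ± 0.42, Ccl4 by 3.66 ± 0.37 and Il4 by 3.23 ± 0.36 (adjusted p = 0.0138 to 0.0286). Of NK cell markers 1 of 4 fitted rose, Nkg7 by 1.25 ± 0.19 (adjusted p = 0.0473), and 0 fell. By sign 2 of these 4 were higher and 2 lower in gut, with a median of -0.03. Fosb was detected on 4 gut arrays and 1 spleen array, so the size of its difference rests mostly on undetected spleen readings. The epithelial gene Krt8 rose by 3.33 ± 0.48. Reg3b, detected on 4 gut and 0 spleen arrays, was at least 16.7-fold higher in gut (adjusted p = 0.00887), and S100a9, a neutrophil and monocyte gene detected on 0 gut and 4 spleen arrays, was at least 19.7-fold lower in gut (adjusted p = 0.0270). Gut and spleen cells were separate preparations, so tissue and preparation cannot be told apart.

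**Figure D4:**
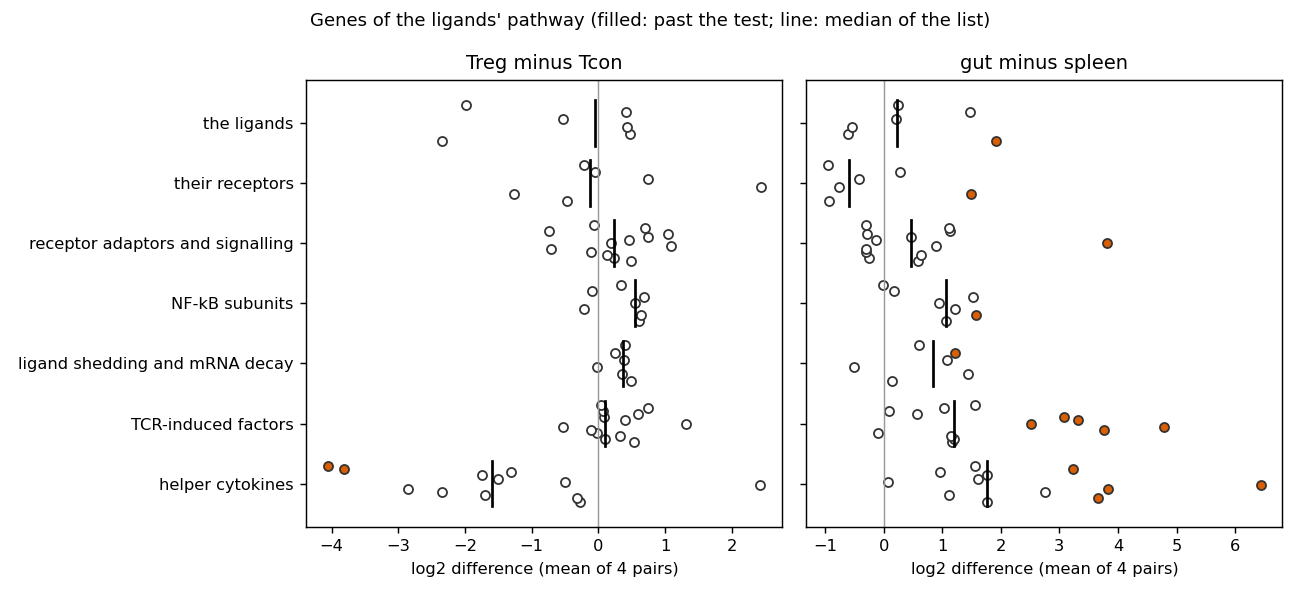
Log2 differences of the 6 fitted ligands and of the fitted genes of 6 pathway lists, for Treg minus Tcon (left) and gut minus spleen (right), 1 point per gene, filled where the gene passed the test, with a line at each list's median. In gut minus spleen the helper cytokines (median 1.76) and factors induced by the T cell receptor (median 1.19) lie mostly above 0, and of the ligands only Fasl is filled. The row of receptors includes Cd160 and Btla, which bind Tnfrsf14 rather than one of the ligands.

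The third comparison sets arrays labelled K14 against those labelled control. Lta was lower in K14 in 4 of 4 pairs and is the member with the largest difference, but no member passed the test. No gene of 7916 did (0%), while 633 had an unadjusted p under 0.05, among them 1 of the 6 members, Lta. With normalized values K14 and control arrays overlapped for every member, against 2.41% of all genes without overlap, and 1 member had 1 direction in all 4 pairs, against 16.5%.

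Lta averaged 9.22 ± 0.43 in K14 and 10.004 ± 0.54 in control (SD, n = 4 each). The pairs gave -0.70 in gut Treg, -0.70 in gut Tcon, -0.93 in spleen Treg and -0.82 in spleen Tcon. Their mean was -0.79 ± 0.15 (limma adjusted p = 0.354), or 1.73-fold lower in K14, and it held rank 55 by p among the 7916 genes. The second Lta probe differed by -1.20 ± 0.47, from -0.30 in gut Treg to -2.94 in spleen Treg. That probe was detected on 2 control arrays and on no K14 array, so these sizes rest mostly on undetected readings. Over the alternatives the difference ranged from -0.99 to -0.59 and the adjusted p from 0.272 to 0.739.

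Markers of myeloid cells moved with the genotype. Their summed signal was 10096 to 20368 on K14 arrays, against 7516 to 9240 on control arrays. Of 12 measured markers 3 to 8 were detected on K14 and 1 to 6 on control arrays, and Itgam, Itgax and Clec9a on none. Cst3, detected on all 8 arrays with intensities of 6779.1 to 12239.1, carried much of the sum and differed by 0.39 ± 0.18. All 8 fitted myeloid markers were higher in K14, with a median of 1.68 and 0 past the test. The list of mast and red cell markers summed to 487.1 to 3777 on K14 arrays, against 201.4 to 470.9 on control arrays. Its mast cell genes Cpa3, Mcpt1 and Mcpt2 were detected on no array, and the red cell gene Hba-a1 read 503.1 to 3381.4 on K14 arrays, against 286 to 566.8 on control arrays. All 5 fitted B cell markers were higher in K14, with a median of 1.27 and 0 past the test, Cd79b by 1.35 ± 0.23 and Blk by 1.75 ± 0.62. The B cell list summed to 5669 to 18869 on K14 arrays, against 1641 to 5997 on control arrays, with 3 to 6 of 9 measured markers detected on K14 and 3 to 4 on control arrays, and Pax5, Ebf1 and Jchain on none. The part of these markers in the Lta difference was not tested.

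The other members differed less than their spread between pairs. Fasl differed by -0.22 ± 0.27, Ltb by -0.14 ± 0.17, Tnf by 0.28 ± 0.30, Tnfsf11 by -0.38 ± 0.33 and Tnfsf14 by 0.08 ± 0.41 (adjusted p = 0.817 to 0.977). For Tnfsf14 the sign turned with median centring (-0.03). Fasl ranged from -0.98 in spleen Treg to 0.44 in spleen Tcon. Tnf ranged from -0.32 in spleen Treg to 1.23 in gut Treg.

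Neither the cell type nor the tissue was shown to change the K14 difference. For Lta it was -0.82 ± 0.23 in Treg and -0.76 ± 0.23 in Tcon, and the difference between these was -0.06 ± 0.32 (adjusted p = 0.999). It was -0.70 ± 0.21 in gut and -0.88 ± 0.21 in spleen, which differed by 0.18 ± 0.30 (adjusted p = 0.964). No gene passed either of these tests (0% each), and 387 and 491 had an unadjusted p under 0.05.

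The members' median difference between K14 and control was -0.18, against -0.01 over all genes. In the 7 pathway lists 0 genes passed the test. The largest values in the receptor list were -0.62 ± 0.52 for Cd40 and 0.59 ± 0.21 for Cd160. In other lists they were -0.99 ± 0.30 for Traf2 among adaptors, 0.69 ± 0.22 for Nfkbia among NF-kB genes and -0.43 ± 0.46 for Rc3h1 among genes of shedding and decay. Among factors induced by the T cell receptor Jun differed by 1.41 ± 0.48 and Egr2 by -1.18 ± 0.51, and among helper cytokines Csf2 differed by 1.38 ± 0.42. Of other TNF superfamily ligands 1 of 9 could be fitted, Tnfsf13b (BAFF), a survival factor for B cells that myeloid cells make. It differed by 0.05 ± 0.57 between K14 and control, by -1.63 ± 0.85 between Treg and Tcon and by 1.98 ± 0.98 between gut and spleen, passing in none.

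For each fitted ligand the genes with the most similar profile were found by Pearson correlation of log2 values over the 8 arrays, which share tissue, cell type and genotype, so these values are descriptions. Fasl was closest to Il4 (0.975) and to Tbx21 (0.972), the gene of the type 1 helper factor T-bet. Tnfsf14 was closest to Tpgs2 (0.963) and Ntrk3 (0.963), Lta to Chchd10 (0.938) and Cfap97 (0.928), and Ltb to Cdipt (0.964) and Tspan32 (0.961). Tnf was closest to Sorl1 (0.912) and Psmb7 (0.892), and Tnfsf11 to Nfkbil1 (0.977), the next gene after Lta on chromosome 17, and Mfsd13a (0.970). Among the ligands themselves Fasl correlated with Tnfsf14 at 0.76 and with Ltb at -0.80, and Lta with Ltb at 0.65. Lta and its neighbour Tnf gave -0.28.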

How the data were processed

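Biotin-labelled RNA of 8 pooled samples was hybridised to Illumina mouse bead arrays. Per the file headers, the deposited table holds a linear probe intensity and a detection p-value per probe and array; background correction is not given in the sources used here. A second table deposited by the authors gives log2 values (medians 8.28 to 8.30 per array) with the same rank order (Spearman correlation 1); their normalization and centring are unknown, so they served as an alternative.

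In R 4.3.3 with limma 3.58.1, background was removed with nec from the detection p-values (offset 16), followed by quantile normalization of the log2 values. Probes detected (p under 0.05) on at least 2 of 8 arrays were kept, and the brightest named probe stood for its gene. Gene names came from the platform annotation: 23978 of 25697 probes had 1 gene symbol. Each comparison was fitted over all arrays with the 4 label-matched pairs as blocks and moderated by eBayes, with Benjamini-Hochberg adjustment over 7916 genes and a threshold of 0.05. Differences between differences had 2 residual degrees of freedom. The number of arrays limits the precision. The fit was tested on simulated data.

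All members were named; of each of 17 lists, the genes past the test, or else up to 4 with the largest differences, and for each fitted member the 2 most correlated genes. Members and lists were chosen with earlier results of these data known. Alternatives changed background, scaling, offset, filter, probe rule, source, floor, block and pairs.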

Additional observations from a re-analysis of the deposited data

Results flagged for a closer look

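Tnfsf11 differed between Treg and Tcon in opposite directions in the tissues, by -0.92 in K14 and -0.28 in control gut, and by 1.81 in K14 and 1.03 in control spleen. The difference between the tissues was -2.02 ± 0.46 (limma, adjusted p = 0.478). On the spleen K14 Tcon array Tnfsf11 was not detected. Over 8 alternatives the difference between the tissues ranged from -2.03 to -0.99.

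In normalized values Ltb differed between K14 and control in opposite directions in the cell types. The values were -0.17 in gut and -0.47 in spleen Treg, and 0.07 in gut and 0.01 in spleen Tcon. The Tcon direction depended on scaling. In intensity K14 Tcon stood lower too, at 0.93 of control in gut and 0.80 in spleen. The difference between the cell types was -0.36 ± 0.33 (limma, adjusted p = 0.999).

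Tnf differed between K14 and control in opposite directions in the tissues, by 1.23 in Treg and 0.35 in Tcon of the gut and by -0.32 in Treg and -0.16 in Tcon of the spleen. The difference between the tissues was 1.03 ± 0.43 (limma, adjusted p = 0.799). None of the 3 passed the test over all genes.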

How the results depend on the processing

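With 4 pairs per comparison and 1 array per combination, counts of called genes moved with the settings. The count for Treg against Tcon, 55 here, was 100 without background correction, 2 without the detection filter, 83 with detection on at least 4 arrays, 100 with the authors' values and 110 without the pair block, and 0 to 0 with a pair left out (919 to 1084 genes at an unadjusted p under 0.05). For gut against spleen, 190 here, it was 393, 125, 322, 466 and 462 in the same order, 289 with an offset of 50, 286 with undetected readings raised to the detection limit (chosen after seeing the data) and 0 to 39 with a pair left out (1413 to 1581 at an unadjusted p under 0.05). It stayed 0 for K14 against control under all of these (461 to 1052 at an unadjusted p under 0.05). Of the members, Fasl in Treg against Tcon and in gut against spleen changed its side of the threshold as given above, and its sign in those comparisons was the same throughout.

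Signs turned for some of the smaller differences, the largest of them 0.45 ± 0.59 for the tissue difference of Fasl in Treg against Tcon. Tnfsf11 in Treg against Tcon was 0.41 as reported. With 1 pair left out, Tnfsf11 in Treg against Tcon ranged from -0.0552 to 0.86, Tnf in gut against spleen from -0.0719 to 0.65, and in K14 against control Tnfsf14 from -0.19 to 0.57, Tnf from -0.0429 to 0.47 and Fasl from -0.44 to 0.0356. Tnfsf14 in K14 against control was -0.0283 with median centring and -0.12 as the mean of its probes. The tissue difference of Fasl in Treg against Tcon was -0.12 with the authors' values. The cell type difference in K14 against control was, for Tnfsf11, -0.14 without background correction, -0.0294 with an offset of 50, -0.17 with the authors' values and -0.16 with the floor, and for Lta 0.0666 with median centring. Its tissue difference for Fasl was -0.0534 without background correction and -0.11 with the authors' values. The cause was not tested. No paired analysis was possible by replicate number because the numbers in the titles follow the genotype.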

Other observations

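In the spleen Treg pair all 6 fitted ligands were lower in K14 than in control, with a median difference of -0.76, while 51.8% of all genes were lower there. In the other K14 against control pairs 3 of the 6 were lower in gut Treg, 2 in gut Tcon and 3 in spleen Tcon. This count was made after the values were seen and was not tested.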
